A study of Mus musculus with 8 samples.

Results

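The genes of the triad and of calcium release described here are Ryr1, Cacna1s, Cacnb1, Cacng1, Atp2a1, Atp2a2, Casq1, Casq2, Trdn and Jph2. They are 10 of the 18193 genes named on the arrays, chosen by name, and every probe set annotated to one of them was taken, which gave 25 probe sets (20 on array type A and 5 on array type B). The samples are total RNA of cultured mouse myotubes from skeletal muscle, the multinucleated cells formed when muscle precursors fuse. There were 4 RNAs, each hybridised to 1 array of each type, 8 arrays in all. The labels describe 1 RNA, under a growth treatment, as wildtype and 1, under the same treatment, as truncated Egr-3 (written truncated Egr3 here). Egr3 is a zinc-finger transcription factor needed for muscle spindles to form. RNA275 has no label beyond an acclimatization treatment, and RNA276 has none. Strain, age, culture time and the way in which the truncated factor was made or introduced are not in the labels. RNA275 and RNA276 therefore belong to no group, and their values are given as those of single RNAs. The study is about genes under the control of Egr3 in primary myotubes, and the wildtype and truncated-Egr3 RNAs are the comparison that the labels allow. Each label has 1 RNA, so differences have no replicate check and no p-value is given, and every difference below describes these RNAs.

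In skeletal muscle an action potential spreads along the T-tubules to the triads, where each tubule lies between cisternae of the sarcoplasmic reticulum. The voltage sensor in the tubule membrane (Cacna1s with its subunits Cacnb1 and Cacng1) acts mechanically on the ryanodine receptor Ryr1, the channel that releases stored calcium. Inside the cisterna calsequestrin (Casq1 and Casq2) binds calcium and triadin (Trdn) holds it near the channel. Junctophilin (Jph2) keeps the membranes apposed, and the pumps encoded by Atp2a1 and Atp2a2 return calcium to the store. Myotubes build this machinery as they mature.

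Signals are deposited intensities on a linear scale with no unit. A signal at or below a floor (67.6 on type A and 112.6 on type B) was read as not measured. Of the 25 probe sets, 17 were above the floor in all 4 RNAs, 2 in some of them and 6 in none. All 10 genes had at least 1 probe set above the floor in both labelled RNAs. Each gene is represented by its brightest type A probe set, and the others are given beside it. The precision is limited by the number of arrays. In 100 probe sets shared by the array types, the same RNA gave a technical SD of 0.18 in a single log2 difference of wildtype minus truncated Egr3. The disagreement between the types themselves had an SD of 0.25, and that between different probe sets of a gene an SD of 0.39 over 9695 pairs.

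**Figure D1:**
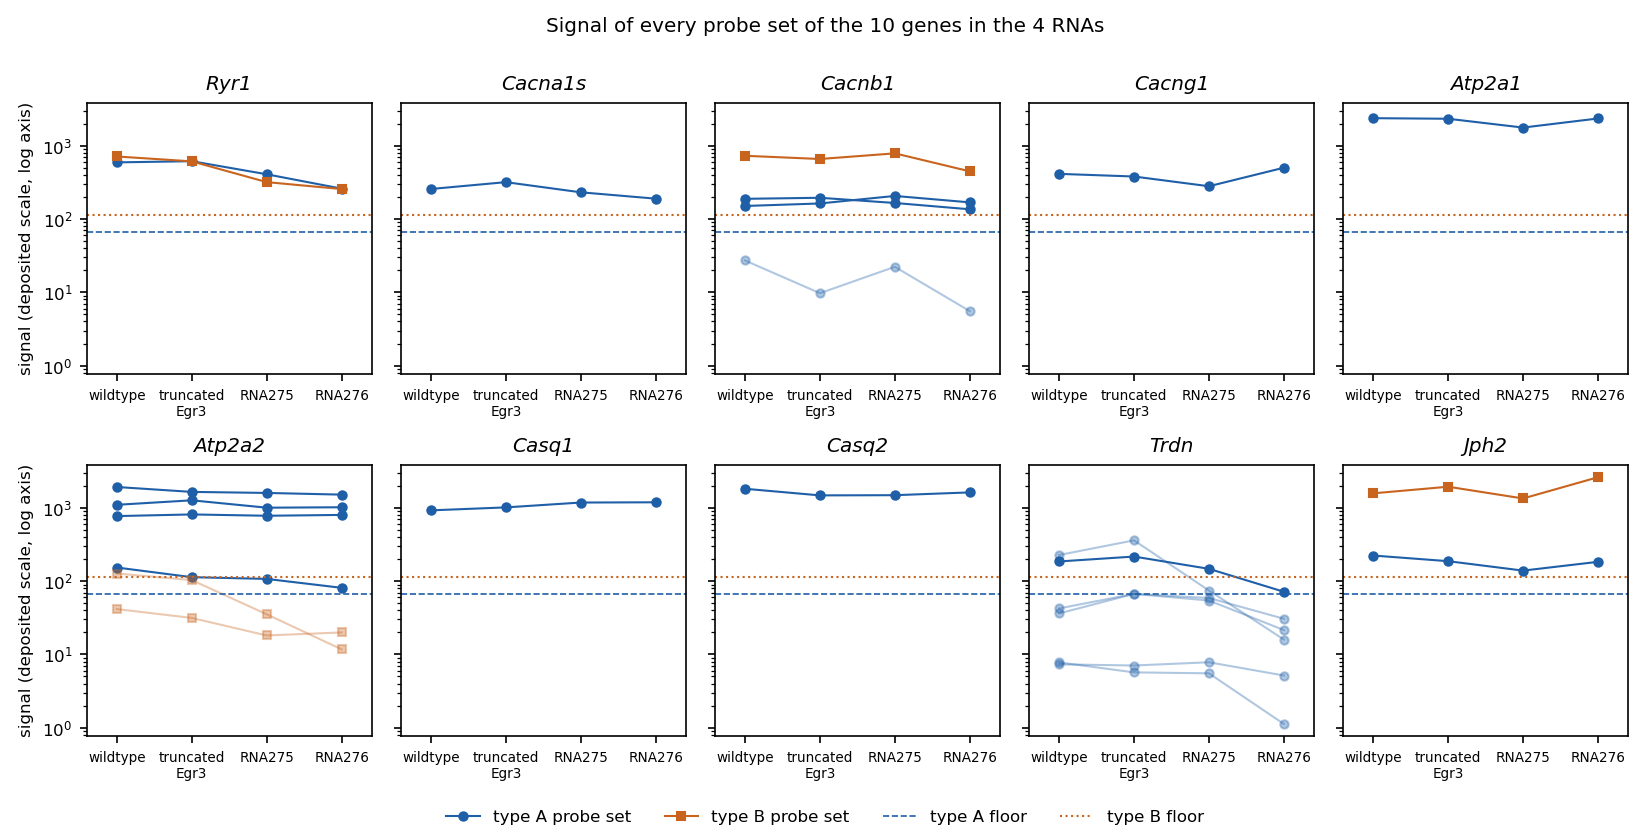
Signal of each probe set (vertical axis, log scale, deposited units) in the 4 RNAs (horizontal axis), 1 panel per gene; circles are type A and squares type B probe sets, pale lines are probe sets not above the floor in all 4 RNAs, and the dashed and dotted lines are the floors of 67.6 and 112.6. Lines join the values of a probe set and imply no order of the RNAs. Ryr1, and Trdn by the probe sets above the floor in the labelled RNAs, run lower in RNA275 and lowest in RNA276. The Trdn probe sets below the floor in all 4 RNAs do not all run lower in RNA275. Casq1, Casq2 and Atp2a1 each span less than 1.5-fold.

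None of the 10 genes was 2-fold apart by any probe set between the wildtype and truncated-Egr3 RNAs. Over all 10307 genes measured in this pair, 116 (1.13%) were higher in wildtype by 2-fold or more and 55 (0.534%) were lower by as much, a split that became 93 and 87 when the arrays were given equal medians. The log2 differences of the 10 genes ran from -0.67 (Trdn) to 0.30 (Casq2). Their median was -0.01, beside a median of 0.00 over all measured genes, and 5 lay above 0 and 5 below. The median size of the difference, ignoring sign, was 0.18 for the 10 genes and 0.20 for all genes. For 5 of the 10 the difference was smaller than the technical SD. At a lower threshold of 1.5-fold Trdn alone was counted, lower in wildtype, as were 4.7% of all genes.

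**Figure D2:**
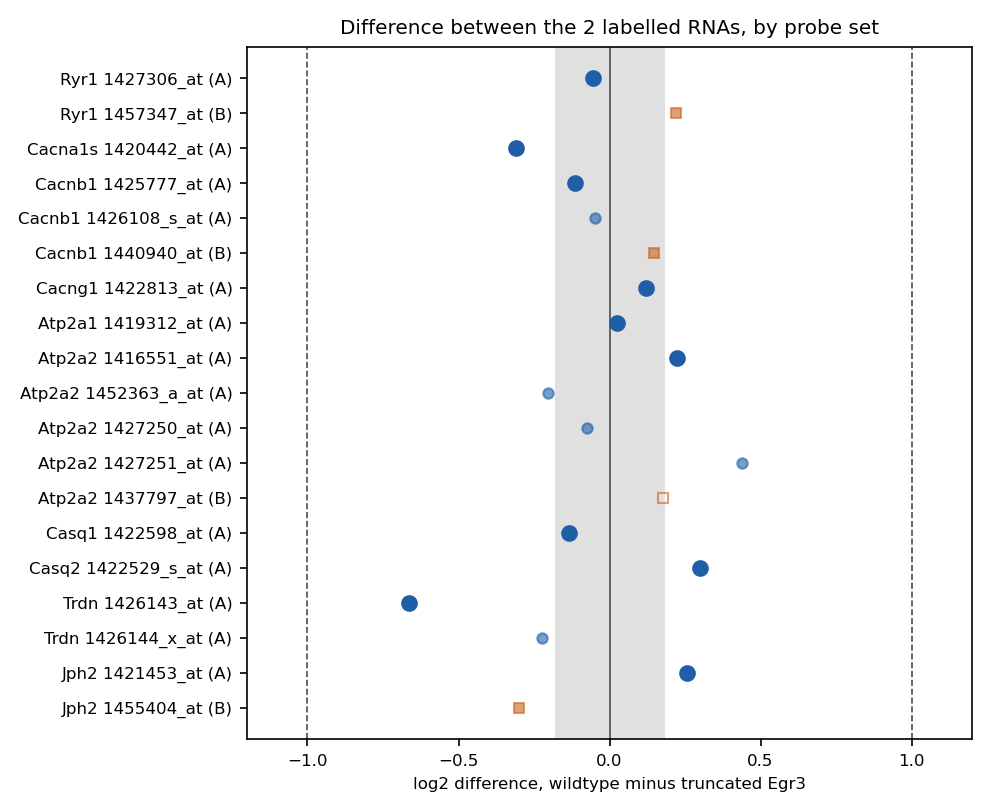
Horizontal axis, log2 of wildtype minus log2 of truncated Egr3, for the 19 probe sets above the floor in at least 1 of these RNAs; circles are type A, squares type B, larger darker points are the probe sets that represent a gene, and the open square is a lower bound. The grey band is 1 technical SD (0.18) to each side of 0 and the dashed lines mark 2-fold. No point reaches 2-fold, and 2 of the 19 lie more than 2 technical SDs (0.36) from 0.

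Across the 4 RNAs Trdn and Ryr1 spanned the widest ranges by the representing probe sets. The highest RNA was at least 2-fold above the lowest for Trdn and Ryr1, 2 of the 10 genes, beside 14.8% of the 11154 genes above the floor in at least 1 RNA. Both were lowest in RNA276, as were 43% of all 1650 genes that were 2-fold apart. These made up 6.36% of all genes. RNA276 was the lowest RNA for 4 of the 10 genes (Ryr1, Cacna1s, Atp2a2 and Trdn), beside 28.5% of all genes. For Atp2a2 the lowest RNA changed to RNA275 under another scaling. For Casq2 it changed from truncated Egr3 to RNA275 with loess and to RNA276 with quantile normalization. The median of highest over lowest was 0.57 in log2 for the 10 genes and 0.54 for all genes.

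**Figure D3:**
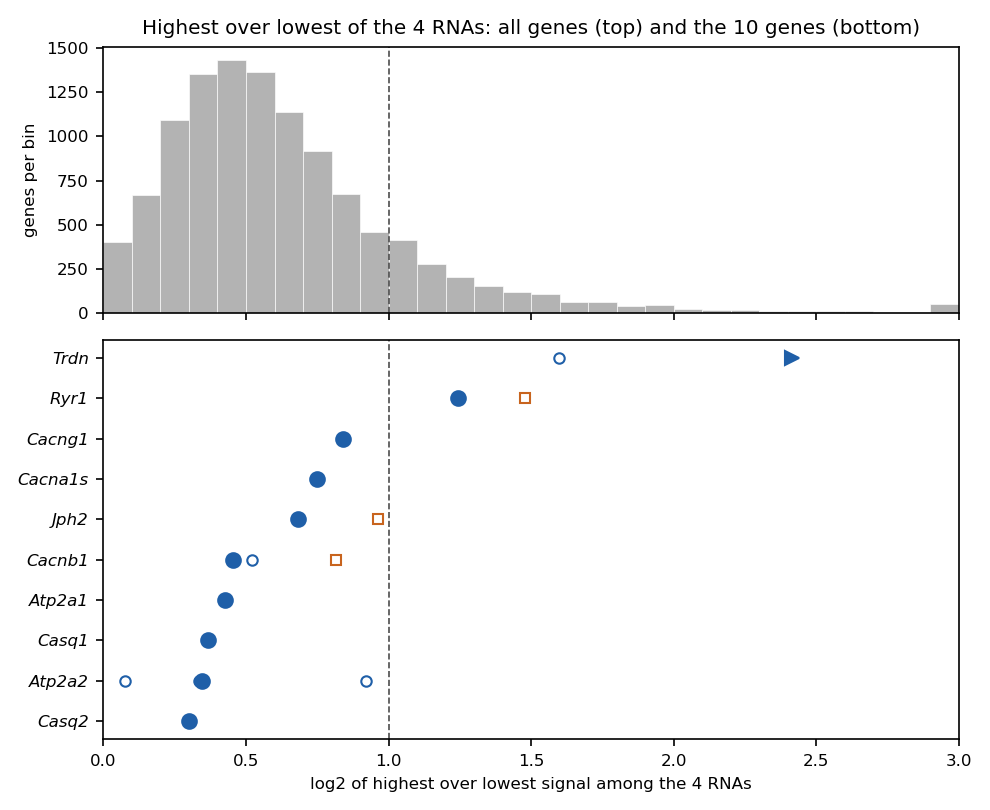
Log2 of the highest over the lowest signal among the 4 RNAs (horizontal axis): a histogram of the 11154 genes above the floor (top; the last bin holds all larger values) and the 10 genes (bottom). Filled circles are the representing probe sets, open symbols the other probe sets above the floor in all 4 RNAs (circles type A, squares type B), and the triangle is a lower bound because RNA276 was at the floor. Trdn and Ryr1 lie right of the dashed 2-fold line; Among the filled points Casq2 is the lowest, at 0.30; an open point of Atp2a2 lies lower, at 0.07.

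The promoter windows of 4 members are shown because they stand for the patterns described next: Ryr1, 2-fold apart among the RNAs on both array types; Cacna1s, whose RNAs fell in the order of the type A probe set of Ryr1; and the calsequestrin pair Casq1 and Casq2, whose ranges were under 1.5-fold on the deposited scale. Each is the 250 bases before the annotated start in RefSeq (GRCm38.p6), 5′ to 3′ on the strand of the gene, with every CANNTG (the E-box, the letters that myogenic factors such as Myod1 bind) in capitals. The windows are chr7:29125152-29125401 (minus strand) for Ryr1, chr1:136052561-136052810 (plus) for Cacna1s, chr1:172219896-172220145 (minus) for Casq1 and chr3:102086165-102086414 (plus) for Casq2.
Ryr1: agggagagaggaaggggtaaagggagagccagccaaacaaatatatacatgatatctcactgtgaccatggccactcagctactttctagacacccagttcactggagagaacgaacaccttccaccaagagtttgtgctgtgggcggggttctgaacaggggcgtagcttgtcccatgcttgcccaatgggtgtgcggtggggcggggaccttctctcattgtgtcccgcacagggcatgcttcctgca
Cacna1s: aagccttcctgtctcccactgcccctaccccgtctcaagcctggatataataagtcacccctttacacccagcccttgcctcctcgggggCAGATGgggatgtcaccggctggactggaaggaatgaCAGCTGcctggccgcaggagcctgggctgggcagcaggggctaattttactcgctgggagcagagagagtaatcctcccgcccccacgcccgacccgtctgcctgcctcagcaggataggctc
Casq1: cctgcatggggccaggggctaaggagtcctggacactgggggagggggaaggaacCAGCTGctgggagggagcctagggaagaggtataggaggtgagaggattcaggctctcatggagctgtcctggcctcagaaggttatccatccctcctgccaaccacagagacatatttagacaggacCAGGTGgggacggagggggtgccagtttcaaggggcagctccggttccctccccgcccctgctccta
Casq2: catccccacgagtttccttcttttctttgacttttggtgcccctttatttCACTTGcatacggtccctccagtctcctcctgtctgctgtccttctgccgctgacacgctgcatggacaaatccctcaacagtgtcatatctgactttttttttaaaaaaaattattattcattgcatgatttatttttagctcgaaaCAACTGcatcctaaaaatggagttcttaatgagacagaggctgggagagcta

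The window of Ryr1 held no CANNTG. In Cacna1s the matches CAGATG and CAGCTG began 160 and 123 bases before the start. In Casq1 they were CAGCTG and CAGGTG, at 195 and 67 bases, and in Casq2 CACTTG and CAACTG, at 200 and 52 bases. RefSeq windows were found for 7 of the 10 members (not for Cacng1, Atp2a2 and Trdn), with 2 windows each for Cacnb1 and Jph2. CANNTG was present in 7 of these 9 windows (6 of the 7 members; 1 of the Cacnb1 windows held none), beside 66.2% of all 32851 windows of that length. CAGCTG, which is one form of CANNTG, was present in 5 of the 9 (1 each of Cacna1s, Casq1 and Atp2a1 and both of Jph2), beside 13.0% of all windows. By member it was in 4 of the 7. The 2 Jph2 windows overlap and share 1 CAGCTG site, so that site counts for both windows in the CANNTG and CAGCTG counts. The letters GCGNGGGCG, which cover known binding sequences of Egr proteins, were searched on both strands and were in none of the windows of the 7 members, beside 4.70% of all windows. A match is a description of the letters in the window only.

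Ryr1, the calcium release channel, had lower signal in RNA275 and RNA276 than in the labelled RNAs. Its type A probe set read 594 in wildtype, 616 in truncated Egr3, 409 in RNA275 and 260 in RNA276. Its type B probe set read 715, 613, 319 and 257 in the same order. The labelled RNAs were thus the high pair on both array types, RNA275 was lower and RNA276 lowest, with highest over lowest at 2.37-fold and 2.78-fold. Between wildtype and truncated Egr3 the log2 differences were -0.05 on type A and 0.22 on type B, of opposite sign. The first is within the technical SD of 0.18 and the second exceeds it, with values from 0.07 to 0.34 under the other scalings.

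Trdn, which anchors calsequestrin to the release channel, gave the largest difference among the 10 genes in both respects. Its brightest probe set read 227 in wildtype, 361 in truncated Egr3, 74.6 in RNA275 and 16.0 in RNA276, the last below the floor. Truncated Egr3 was therefore highest, and highest over lowest was at least 5.34-fold. A second probe set, of a kind marked for possible cross-hybridisation, read 186, 217, 147 and 71.7, which is 3.02-fold and the same order of RNAs. The log2 differences of wildtype minus truncated Egr3 were -0.67 and -0.22, the same sign in both and 2-fold in neither. The other 4 Trdn probe sets were below the floor in all 4 RNAs. Of these, 1 read 67.1 and 1 read 67.0 in truncated Egr3, just under it. Under the median over probe sets the gene fell below the floor and gave no value.

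The calcium-binding proteins of the store spanned small ranges on the deposited scale. Casq1, the calsequestrin of fast fibres, read 925 in wildtype, 1016 in truncated Egr3, 1183 in RNA275 and 1192 in RNA276, so the labelled RNAs were here the low ones. Casq2, the calsequestrin of heart and slow fibres, read 1824, 1481, 1491 and 1627, with wildtype highest. With equal medians RNA276 was highest for Casq2, at 1776 against 1707 in wildtype. Highest over lowest was 1.29-fold for Casq1 and 1.23-fold for Casq2, or 0.37 and 0.30 in log2. With equal medians the range of Casq1 rose to 0.59, against the 0.54 of all genes on the deposited scale, and that of Casq2 was 0.29. The log2 differences of wildtype minus truncated Egr3 had opposite signs, -0.13 for Casq1 and 0.30 for Casq2. These differ by 0.43, close to the SD of 0.39 between probe sets of a single gene. Casq2 rests on 1 probe set, of a kind marked for possible cross-hybridisation.

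The voltage sensor subunits did not share one pattern. Cacna1s, the pore-forming subunit that senses voltage, read 257 in wildtype, 319 in truncated Egr3, 232 in RNA275 and 190 in RNA276. This is the order of RNAs seen with both Trdn probe sets above the floor and with Ryr1 on type A, over a smaller range of 1.68-fold, and wildtype lay below truncated Egr3 by a log2 difference of -0.31. Cacng1, the gamma subunit of the skeletal muscle channel, went another way, at 414, 381, 281 and 502. It was highest in RNA276 and lowest in RNA275, 1.79-fold apart, and the labelled RNAs lay between them with a log2 difference of 0.12.

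Cacnb1, the beta subunit that carries the channel to the membrane, was read by 4 probe sets that disagreed. On type B it was 731 in wildtype, 660 in truncated Egr3, 789 in RNA275 and 448 in RNA276. On type A one probe set read 151, 163, 207 and 169. Another, of a kind marked for possible cross-hybridisation, read 189, 195, 166 and 136. On the deposited scale RNA276 was thus lowest by 2 of these 3 and RNA275 highest by 2 of them. With quantile normalization wildtype was highest on type B, at 769 against 767 in RNA275. The log2 differences of the labelled pair were 0.15, -0.11 and -0.05, all within the technical SD on the deposited scale. On type B the other scalings gave -0.01 to 0.27, the largest beyond that SD. The remaining type A probe set was below the floor in all 4 RNAs.

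By their brightest probe sets the calcium pumps of the reticulum were strong in all RNAs and spanned less than 1.5-fold. Atp2a1, the pump of fast fibres, read 2382 in wildtype, 2339 in truncated Egr3, 1773 in RNA275 and 2359 in RNA276, so RNA275 stood apart as the lowest and the other RNAs were alike. The log2 difference of the labelled pair was 0.03, and its sign turned under each of the other 3 scalings, the lowest value being -0.06. Atp2a2, the pump of heart and slow fibres whose other splice form serves most cells, read 1929, 1653, 1600 and 1517 by its brightest probe set. Of the further probe sets 2 read 1102, 1269, 1007 and 1020, and 773, 814, 781 and 802, and the last of these spans only 1.05-fold. A dimmer one read 154, 113, 107 and 81.1, a range of 1.89-fold with RNA276 lowest. The log2 differences of wildtype minus truncated Egr3 by these 4 were 0.22, -0.20, -0.07 and 0.44, so the probe sets give no common direction. On type B 1 probe set was above the floor in wildtype alone (127) and another in no RNA.

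Jph2, which ties the T-tubule to the reticulum, also gave opposite readings on the array types. On type A it read 224 in wildtype, 187 in truncated Egr3, 139 in RNA275 and 184 in RNA276. On type B it read 1580, 1945, 1345 and 2620. RNA275 was lowest by both, 1.61-fold and 1.95-fold under the highest RNA, but the highest was wildtype on type A and RNA276 on type B. The log2 differences of the labelled pair were 0.26 and -0.30. In the 100 shared probe sets RNA276, set against the mean of the 4 RNAs, read on average 0.11 (log2) lower on type A than on type B, and wildtype read 0.16 higher. The log2 difference of the labelled pair was on average 0.14 higher on type A in these probe sets, which is the direction seen for Jph2. Ryr1 and Cacnb1 went the other way. They gave -0.05 on type A against 0.22 on type B, and -0.11 and -0.05 against 0.15. The part of this offset in these readings was not tested.

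Over the 17 probe sets above the floor in every RNA, 8 were lowest in RNA276 and 5 in RNA275, beside 28.4% and 26.1% of the 14163 such probe sets of all genes. In 4 of the 17 (1 each of Ryr1, Cacna1s, Cacnb1 and Trdn) the order from high to low was truncated Egr3, wildtype, RNA275, RNA276, and in 3 (1 of Ryr1 and 2 of Atp2a2) it was the same with the first pair exchanged. Over all such probe sets these orders made up 7.19% and 4.77%. Probe sets of a gene share its transcript and are not independent. The counts are on the deposited scale. Under other scalings the lowest RNA changed for Casq2 and for some of the Atp2a2 probe sets. The order changed with equal medians for the brightest Atp2a2 probe set and with loess for the dimmer one.

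Markers of myotubes were strong in all 4 RNAs. Of 15 markers, 14 were above the floor in each RNA, Ckmt2 being below it. The summed signal of all 15 was 32146 in wildtype, 28312 in truncated Egr3, 27296 in RNA275 and 29637 in RNA276. In a culture, fewer myotubes and less RNA per myotube cannot be told apart. Ttn, the giant spring protein of the sarcomere, had the widest range of these markers and the order of RNAs of Ryr1 on type B, at 1850, 1627, 704 and 354 by its brightest probe set. Of its 6 probe sets 4 were lowest in RNA276 and 2 in RNA275. Mb, myoglobin (2053, 2112, 1197 and 1221), and Myh8, the perinatal myosin (1308, 1395, 762 and 1018), were also lower in RNA275 and RNA276 than in the labelled RNAs, while Myog, Des and Mylpf were highest in RNA276, RNA276 and RNA275. The part of these differences in the results on Ryr1 and Trdn was not tested. Heart markers bear on Casq2 and Atp2a2: none of 8 was above the floor in the labelled RNAs, and 1 was just above it in RNA275 (Nppb, 74.1) and 1 in RNA276 (Gata4, 67.9). Of 8 myoblast and satellite cell markers 4 were above the floor in each RNA, with Pax7 and Myf5 below it. The sum over all 8, those below the floor included, ranged from 1443 to 1837. Vcam1 read 157 in wildtype, 146 in truncated Egr3, 155 in RNA275 and 397 in RNA276, a range over 2-fold. Cdh15, Itga7 and Sdc4 spanned less than 2-fold, Sdc4 with RNA276 lowest. Of 8 fibroblast markers 5 were above the floor, with Pdgfra and Thy1 below, and the sum over all 8 ranged from 7176 to 8556. Of 9 smooth muscle and pericyte markers 6 were above it (Myh11 not), with sums from 6610 in truncated Egr3 to 8337 in wildtype. The count and the sums include Des, which is also on the list of myotube markers. Among these Cspg4 (181, 132, 120 and 85.1), Pdgfrb (442, 322, 347 and 202) and Smtn (741, 492, 907 and 418) had ranges over 2-fold. They were, like Ryr1 and Trdn, lowest in RNA276. The other smooth muscle and pericyte markers above the floor did not share this pattern. Acta2 and Des were highest in RNA276 and Tagln was lowest in truncated Egr3, each with a range under 2-fold. Of 8 macrophage markers 2 were above the floor, and the sum over all 8, those below the floor included, ranged from 371 to 406. Within the labelled pair the 5 fibroblast markers went both ways: Dcn, decorin, was lower in wildtype (157 against 317) and Col3a1 was at -0.08 in log2, while Col1a1, Col1a2 and Fbln1 were at 0.33, 0.19 and 0.11. Of the smooth muscle markers Tagln, transgelin, was higher in wildtype (1946 against 1093). The part of these cells in the results was not tested. The ratio of 3′ to 5′ control signals in RNA276 was 1.13 and 1.11 for beta-actin, within the 1.05 to 1.19 of the other RNAs, and 0.78 and 0.83 for Gapdh, against 0.72 to 0.82.

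Other genes of calcium handling were taken from 6 lists. Of 84 genes listed, 77 had a named probe set and 55 were measured in the labelled pair. None was 2-fold higher in wildtype and 1 was 2-fold lower, beside 1.13% and 0.534% of all genes. The median log2 difference was -0.11, with 18 genes above 0 and 37 below, whereas 50.1% of all measured genes were below 0. With equal medians 10 were above 0 and 45 below, beside 61.1% of all genes below 0. This scaling moved the median of all genes to -0.09. Without probe sets with a letter before the suffix, 20 were above and 27 below, beside 51.1%. With no floor the split was 34 and 42, beside 44.6%. With the median over probe sets it was 19 and 30, beside 50.2%. By each probe set it was 48 and 70, beside 51.0%. Quantile normalization gave 19 and 36, and loess 20 and 35.

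The gene 2-fold lower in wildtype was Atp2a3, a pump of the same family found mainly in non-muscle cells. It read 63.4 in wildtype, under the floor, 171 in truncated Egr3, 53.4 in RNA275 and 44.7 in RNA276, so truncated Egr3 was the 1 RNA above the floor and at least 2.54-fold above wildtype. Its other probe set was below the floor in all 4, and the one above it is of a kind whose name marks several transcripts of a gene. Sln, sarcolipin, which inhibits the pump, read 303 in wildtype, 561 in truncated Egr3, 376 in RNA275 and 384 in RNA276, a log2 difference of -0.89 with wildtype lowest; its other probe set was below the floor throughout. Among these 3 measured pump genes the micropeptide gene Mrln was at 0.155, and Pln, phospholamban, was below the floor in all 4 RNAs.

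Orai3, a pore subunit of store-operated calcium entry, read 107 in wildtype, under the floor, and 224 in truncated Egr3, at least 1.99-fold higher; the other 3 scalings took it past 2-fold. Tmem38b and Tmem38a, cation channels that balance charge during release, had differences of -0.71 and -0.49. For Tmem38b the other measured probe sets gave -0.16 and 0.30, so the sign is not shared. The second Tmem38a probe set gave -0.10. Selenon, a reticulum protein that supports Ryr1, was at -0.56. Jph1, the other junctophilin of skeletal muscle, was at -0.50 on type A and -0.15 on type B. Itpr3, a receptor channel for inositol trisphosphate, was at 0.56, higher in wildtype. On the deposited scale none of these differences was counted as 2-fold after flooring, but that of Orai3 is a lower bound.

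By list, the partners of the voltage sensor had a median log2 difference of 0.10 over 6 measured genes, and the partners of the release complex and store one of -0.18 over 12, of which 10 were below 0. The triad and T-tubule membrane list had -0.24 over 12, with 9 below 0. The other routes of calcium entry and release had -0.05 over 10, and the genes of the cytosolic calcium response -0.11 over 12. By the representing probe sets no gene of these 5 lists was counted as 2-fold apart on the deposited scale, Orai3 resting on a lower bound. When each probe set was counted, Atp2b1, Camk2d and Slc8a3 had one that was 2-fold apart.

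**Figure D4:**
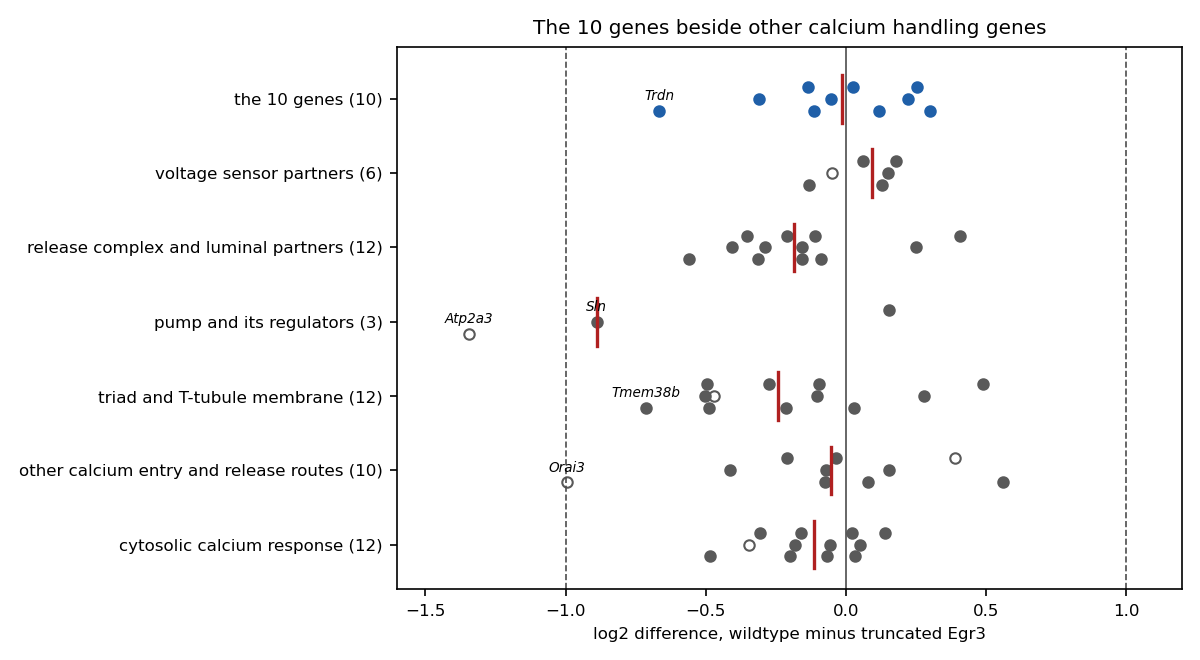
Horizontal axis, log2 of wildtype minus log2 of truncated Egr3, for the 10 genes (blue) and for the measured genes of the 6 other calcium handling lists (grey), 1 row per list with the number of genes in brackets. Open circles are lower bounds, red bars are medians and dashed lines mark 2-fold. The 10 genes centre on 0 with Trdn lowest at -0.67, and Atp2a3 is the 1 gene past 2-fold.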

How the data were processed

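Total RNA of mouse myotubes (4 RNAs) was measured on 2 array types (8 arrays). The deposited values are intensities, 1 per probe set; how they were computed and normalized is not given in the sources used here. The mean after trimming 2% at each end was 150.0 on all 8 arrays, so the deposited scale was kept. It assumes that total signal is alike in all RNAs. Probe sets were named by the platform table through gene numbers of a RefSeq table (GRCm38.p6). On type A 20380 probe sets had 1 symbol, 691 several and 1606 none; on type B 14661, 245 and 7656. On each type 13 further control probe sets carry a symbol and were left out. Those with several or none were not named, and no probe set with several symbols included a member. Floors were the 50th (type A) and 60th (type B) percentiles of the wildtype and truncated-Egr3 arrays, and log2 was taken after flooring, which shrinks differences of dim genes. Each gene took its brightest probe set, on type A where present.

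The members and lists were chosen with earlier results of these data known. Named were all members, pathway genes at 2-fold or the 8 largest differences, and the 8 largest of highest over lowest. Alternatives were quantile normalization, equal medians, loess (span 0.3), a lower, a higher and no floor (minimum signal 1), thresholds of 1.5-fold and 3-fold, each probe set or their median, and leaving out probe sets with a letter before the suffix of their name (marks of possible cross-hybridisation or of several transcripts of a gene). The counting was tested on simulated data. Computation used pandas 2.3.3 and numpy 2.4.6 under Python 3.11.15, with loess from statsmodels 0.14.6 and plots from matplotlib 3.10.9.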

Additional observations from a re-analysis of the deposited data

Results flagged for a closer look

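Jph4, a junctophilin known mainly from neurons, had a signal in an RNA without a group that was above both labelled RNAs. It read 246 in RNA275 and 170 in RNA276, while wildtype (112) and truncated Egr3 (101) were below the type B floor. RNA275 was 1.13 in log2 above the floor. It rests on 1 probe set.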

How the results depend on the processing

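The count of the 10 genes 2-fold apart between the labelled RNAs was 0 under the 10 alternatives other than the 1.5-fold threshold, which gave 1 (Trdn). Their median difference moved by less than the technical SD under all 9 alternatives run for it, from -0.01 to -0.08. The genes 2-fold apart among the 4 RNAs were Ryr1 and Trdn under the 3 other scalings, the lower, higher and no floor, and without lettered probe sets, where Casq2 had no value. They numbered 5 at 1.5-fold, beside 5014 of all 11154 genes, and 1 (Trdn) at 3-fold, beside 389. With the median over probe sets 1 (Ryr1) passed, beside 1344 of 9907 genes, and Trdn was below the floor. When each probe set was counted 4 of 19 passed, beside 3114 of 19960. The count of other calcium handling genes was 2 under each other scaling (Orai3 added) and 0 with the higher floor. With the lower floor it was 3 of 64, beside 185 of all 12060 genes higher in wildtype and 84 lower. With no floor it was 6 of 76, beside 1206 of 18132 higher and 603 lower. At 1.5-fold it was 4 of 55, beside 473 of 10307 higher and 484 lower. By each probe set it was 4 of 118, beside 177 of 18386 higher and 141 lower. It was 0 at 3-fold and 0 with the median over probe sets. Without lettered probe sets it was 1, Camk2d in place of Atp2a3. Of 78 values of single members under alternatives, 77 moved by less than the technical SD. The other was Atp2a2, at -0.14 with the median over probe sets against 0.22. The sign of Atp2a1 alone differed between scalings by the representing probe set. Equal medians moved the median of all type B genes from -0.03 to -0.17. The causes were not tested. Signal near the floor limits Trdn, Atp2a3 and Orai3.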

Other observations

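Among the other calcium handling genes, 8 of the 58 above the floor in at least 1 RNA had their highest RNA at least 2-fold above the lowest, beside 14.8% of all genes. RNA276 was the lowest for 4 of these 8, near the 43.0% of all 1650 genes that were 2-fold apart. Atp2b1, the calcium pump of the plasma membrane, read 1444 in wildtype, 1520 in truncated Egr3, 1409 in RNA275 and 662 in RNA276, and both other probe sets were lowest in RNA276 as well (716 and 197). One of those differed within the labelled pair too, at 348 in wildtype against 702 in truncated Egr3 (log2 difference -1.01), while the other 2 gave -0.07 and -0.18. Cacna2d1, the extracellular subunit of the voltage sensor, read 159, 152, 114 and 63.1 on type A, the last under the floor, and 1434, 1752, 1361 and 726 by its brightest type B probe set. Itpr3 read 303, 206, 252 and 147, a range of 2.06-fold that fell below 2-fold with equal medians and with loess.

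The direction was the opposite for Ank1, whose muscle form links the reticulum to the sarcomere. Its brightest probe set read 431 in wildtype, 463 in truncated Egr3, 304 in RNA275 and 889 in RNA276. A second probe set of similar brightness read 520, 441, 339 and 332, with RNA276 lowest. Orai3 was highest in RNA276, at 360 against 168 in RNA275. Nfatc4, a calcineurin-dependent transcription factor, read 213, 223, 109 and 173, lowest in RNA275, 2.06-fold below the highest, and under 2-fold with equal medians and with loess.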
